A study of Mus musculus with 12 samples.

Results

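This report describes 47 mouse genes of the kinetochore, the spindle checkpoint and the mitotic machinery, chosen by name and by the complex or step their proteins belong to; the rule used no values, but it was written with earlier results of these data known. All 47 were found among the 54658 genes counted, and all 47 passed the filter on low counts that left 21456 genes for testing. RNA sequencing had been done on 9 mammary tumours and on 3 preparations of epithelium enriched from mammary glands. The mice were of 1 cohort. The genotype of the tumours was Trp53R245W/+, a missense change in 1 copy of the gene of the tumour suppressor p53, which the series describes as somatic. The epithelium was WT, and all libraries came from female C57BL/6J X BALB/cJ F1 hybrid mice. No treatment and no age is given in the sources used here, nor how the allele was switched on. Whether 2 tumours can stem from 1 mouse is not stated, so p-values measure the spread between these samples. Genotype, tumour state and the prefix of the library titles, R597 in tumours and R688 in epithelium, all followed the group and cannot be told apart. Tumours are called by their label numbers 1, 4, 5, 14, 17, 20, 21, 24 and 27, and epithelium libraries by 1, 2 and 3.

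The kinetochore is the protein assembly on each centromere that holds a chromosome to the spindle microtubules. Its inner layer, the CENP proteins, sits on nucleosomes that carry the histone variant CENP-A, and its outer layer, with the NDC80 complex, grips the microtubule. The spindle checkpoint watches unattached kinetochores and restrains the anaphase-promoting complex (APC/C), the ubiquitin ligase that starts anaphase by marking cyclin B and securin for destruction. Many of these genes are transcribed in G2 and M phase through B-Myb and Foxm1, and their level in a bulk tissue rises with the share of dividing cells.

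Gene counts per library ran from 19695318 to 33600076. A count of 3, the limit that a count of 0 allows, thus stood for at most 0.152 per 1000000 gene counts before scaling. CPM below are counts per 1000000 gene counts, scaled by the trimmed mean of M values. That scaling factor was 0.557 in tumour 4, so on the CPM scale the limit is higher there. Alignments outside genes were 8.08 to 32.25% of the total in tumours and 39.9 to 41.51% in epithelium. Tumour 4 stood apart, with 51.97% of alignments not unique and 22.58% of its gene counts from the small nuclear RNA gene Rn7sk. Epcam, a surface marker of epithelial cells, had 455 to 2025 CPM in tumours and 250 to 275 CPM in epithelium, and Krt8 and Krt18, luminal keratins, were above 200 CPM in every library. Of 11 luminal markers 2 were higher and 3 lower, and the basal keratins varied over tumours, with 0.166 to 913 CPM of Krt5 and 1.08 to 278 CPM of Krt14, against 37.5 to 76.1 and 95.7 to 244 CPM in epithelium. Trp53 itself averaged 48.5 ± 19.7 CPM over the tumours and 43.8 ± 2.0 CPM over the epithelium libraries (SD, n = 9 and 3), a level that cannot check a missense genotype. Summed CPM of 9 T and NK cell markers were 3.66 to 32.5 in tumours against 439 to 513 in epithelium, and those of 7 B cell markers were 1.89 to 63.8 against 665 to 953. All 16 of these lymphocyte genes were lower in tumours. Summed endothelial markers were 170 to 553 CPM in tumours against 826 to 946 CPM in epithelium (4 of 8 lower), and adipocyte markers 16.8 to 122 against 332 to 515 CPM (2 of 6 lower), while 2 of 7 macrophage markers were higher. No marker was at 0 in all libraries of a group, and the part of these cells in the results below was not tested.

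Expression of 40 of the 47 genes was higher in tumours and of none lower, where 8.89% of all genes tested were higher and 11.4% lower. A gene was called at an adjusted p under 0.05 in edgeR's quasi-likelihood test with Benjamini-Hochberg adjustment over all 21456 genes. The log2 fold change was positive in all 47. The median log2 fold change of the 47 genes, tumour over epithelium, was 2.94, while that of all genes tested was 0.17. In 38 of the 47 genes every tumour lay above every epithelium library, which held for 10.2% of all genes tested. In a bulk sample a larger share of dividing cells and more RNA per dividing cell cannot be told apart. The share of alignments outside genes separated the groups. With that share as a covariate none of the 47 was called by edgeR, and their median log2 fold change was 2.57. In that fit 0.941% of all genes were called higher. With upper quartile scaling 37 of the 47 were called against 7.38% of all genes, with DESeq2 43 against 13.1%, and with limma-voom 45 against 23.3%. Without epithelium library 1, 2 or 3 edgeR's calls numbered 27, 27 and 30 of 47, against 2.26%, 2.42% and 2.45% of all genes.

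**Figure D1:**
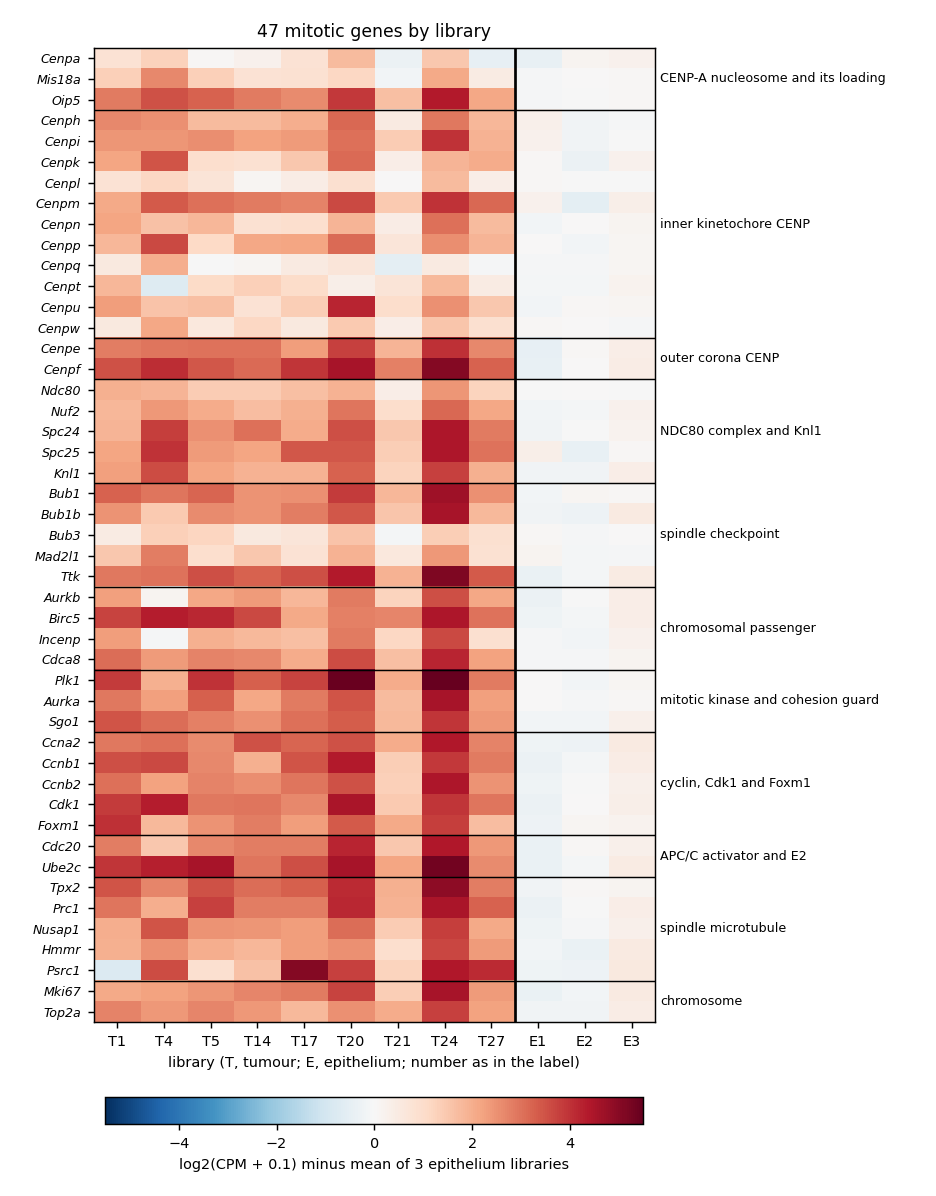
Heat map of the 47 genes (rows, in groups by role) in 9 tumours and 3 epithelium libraries (columns); colour gives log2(CPM + 0.1) minus the mean of the 3 epithelium libraries, red for higher. Nearly all cells of the tumour columns are red, palest in tumour 21 and darkest in tumour 24, while Cenpa, Cenpl, Cenpq, Cenpt and Bub3 stay pale across most tumours.

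The genes of CENP-A loading and of the inner kinetochore had the smallest median changes of the 11 role groups. Of the 14 genes of CENP-A loading and the inner kinetochore 8 were called, with a median log2 fold change of 2.00, and of the other 33 genes 32 were called, with a median of 3.09. DESeq2 called 10 of the 14 and all 33 others, adding Mis18a, Cenpw and Bub3. With limma-voom 12 of the 14 and all 33 others were called, adding Cenpl and Cenpt as well. Counts of calls also depend on the size of change. In simulated counts edgeR's test called 2% of genes changed 2-fold, 30% of those changed 4-fold and 78% of those changed 8-fold. A gene that was not called is therefore not shown to be unchanged. Cenpa (chr5:30666777-30674830, GRCm38) encodes the centromeric histone itself. It had 16.4 CPM in the lowest tumour, 39.0 in the median and 77.1 in the highest, against 17.1, 25.5 and 27.1 CPM in epithelium. Only 6 of 9 tumours lay above all epithelium libraries, and the log2 fold change of 0.79 (SE 0.48) was not called (edgeR adjusted p = 0.247). Mis18a, part of the complex that readies centromeres for new CENP-A, had 6.05, 15.0 and 42.9 CPM (lowest, median and highest tumour) against 6.47, 6.85 and 7.07 CPM in epithelium. Its log2 fold change of 1.39 missed the threshold (SE 0.53, edgeR adjusted p = 0.0826), and without tumour 21 the adjusted p was 0.0418. Oip5, known as MIS18-beta and a partner of Mis18a in that complex, was the exception in this group. It had 2.45, 5.68 and 16.3 CPM in tumours against 0.658, 0.695 and 0.744 CPM in epithelium, with no overlap and a log2 fold change of 3.39 (SE 0.63, edgeR adjusted p = 0.00256).

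Among the 11 inner kinetochore genes, whose products form the layer between CENP-A chromatin and the outer kinetochore, 7 were higher and 4 were not called. Cenpm rose most, with 3.03, 9.35 and 18.3 CPM in the lowest, median and highest tumour against 1.25, 0.695 and 1.35 CPM in epithelium (log2 fold change 3.14, SE 0.58, edgeR adjusted p = 0.00232). Cenpi, its partner around CENP-H and CENP-K, followed with 8.83, 18.1 and 53.8 CPM against 3.91, 2.85 and 3.28 CPM (log2 fold change 2.68, SE 0.53, adjusted p = 0.00398). The groups did not overlap in either gene. Cenph, Cenpk, Cenpn, Cenpp and Cenpu were also higher, by 1.82 to 2.46 on the log2 scale and without overlap. Each of these 5 lost its call without 1 or more single epithelium libraries, where the edgeR adjusted p reached 0.0591 in Cenph, 0.1614 in Cenpk, 0.1307 in Cenpn, 0.0842 in Cenpp and 0.1654 in Cenpu. Cenpk was also not called without tumour 1, 20, 24 or 27 (adjusted p 0.0502 to 0.0542), nor Cenpu without tumour 1, 5 or 24 (0.054 to 0.0627). Both also lost their calls with upper quartile scaling and with no filter or a stricter filter on low counts (0.0523 to 0.0584). Cenpu had 48.5 CPM in tumour 20 and 4.54 to 14.8 CPM in the other tumours, against 2.29 to 2.74 CPM in epithelium. Its log2 fold change was 2.33 with tumour 20 and 1.72 without it. Cenpu shares 1069 exonic bases, 26.7% of its exonic length, with Primpol on the opposite strand. The strand setting of the counting is not given, so how reads from that stretch were counted is not known. Primpol had 69.0 CPM in tumour 20 and 11.5 to 26.0 CPM in the other tumours.

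The 4 inner kinetochore genes that were not called were Cenpl, Cenpq, Cenpt and Cenpw. Cenpq, of the arm that links the centromere to Plk1, had 7.71, 16.2 and 44.8 CPM in the lowest, median and highest tumour against 10.9, 10.9 and 12.1 CPM in epithelium (log2 fold change 0.59, SE 0.46, edgeR adjusted p = 0.375). Its groups overlapped, with 6 of 9 tumours above all epithelium libraries. Cenpt, a histone-fold protein that binds DNA and recruits the NDC80 complex, had 5.20 CPM in tumour 4 and 10.6 to 30.5 CPM in the others, against 7.86 to 9.70 CPM in epithelium. Its log2 fold change was 1.04 (SE 0.47, edgeR adjusted p = 0.131), and 1.16 without tumour 4, where the adjusted p was 0.0413. Cenpw, its histone-fold partner, had 8.37, 12 and 28.9 CPM against 6.72, 6.57 and 6.08 CPM, without overlap (log2 fold change 1.14, adjusted p = 0.0669, and 0.0481 without tumour 21). Cenpl, the partner of CENP-N, had 5.10, 8.41 and 17.3 CPM against 5.26, 5.01 and 5.00 CPM, so its log2 fold change was 0.79 (SE 0.39, adjusted p = 0.163).

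Both genes of the outer corona were higher. Cenpf (chr1:189640606-189688086), a large protein of the fibrous corona, had 80.1, 131 and 386 CPM in the lowest, median and highest tumour against 8.79, 11.8 and 15.3 CPM in epithelium. The lowest tumour was well above the highest epithelium library, and the log2 fold change was 3.88 (SE 0.56, edgeR adjusted p = 0.000443). Cenpe, the kinesin motor that carries chromosomes to the spindle equator, had 39.4, 83.6 and 172 CPM against 7.79, 11.3 and 13.9 CPM (log2 fold change 3.03, SE 0.48, adjusted p = 0.000878). Cenpe and Cenpf are named CENP like the inner genes, and of all 14 genes with that name 9 were called.

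All 5 genes of the NDC80 complex and its scaffold Knl1 were higher in tumours without overlap. The 4 subunits of the complex differed in size of change. Spc25 had 6.09, 18.8 and 52.9 CPM in the lowest, median and highest tumour against 2.91, 1.74 and 2.47 CPM in epithelium (log2 fold change 3.23, SE 0.69, edgeR adjusted p = 0.00581). Its dimer partner Spc24 had 6.05, 16.2 and 48.0 CPM against 1.87, 2.12 and 2.43 CPM (log2 fold change 3.18, SE 0.68). Both form the end of the rod that docks on the kinetochore. Nuf2, of the end that binds microtubules, had 11.3, 24 and 50.9 CPM against 5.16, 5.32 and 6.66 CPM (log2 fold change 2.26, SE 0.45). Ndc80, its partner there, had 8.87, 21.7 and 38.2 CPM against 6.82, 7.06 and 6.86 CPM, the smallest change of the 5 (log2 fold change 1.69, SE 0.39, adjusted p = 0.00972). Differences between these fold changes were not tested. Knl1, the platform for the checkpoint proteins Bub1 and Bub3, had 26.1, 51.4 and 154 CPM against 9.90, 9.70 and 14.7 CPM (log2 fold change 2.67, SE 0.60). Ndc80 was not called without any 1 of the epithelium libraries (edgeR adjusted p 0.0513 to 0.0559), nor was Knl1 without epithelium library 1 (0.0504).

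**Figure D2:**
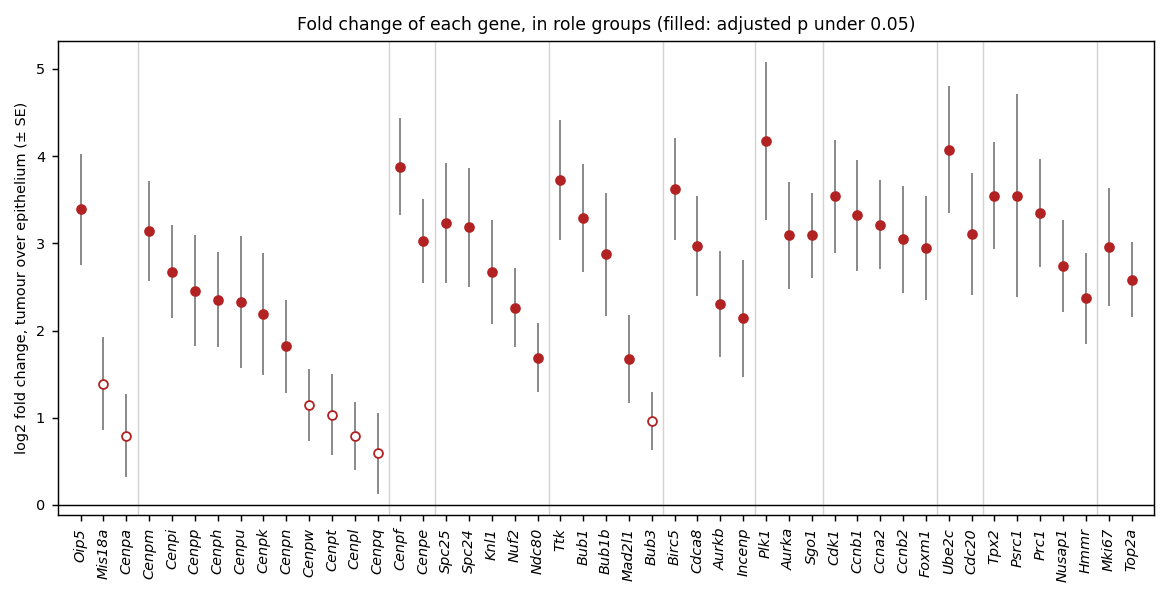
Log2 fold change of each of the 47 genes, tumour over epithelium (points, with bars of 1 SE), in role groups set apart by vertical lines and in the order of the heat map; filled points had an edgeR adjusted p under 0.05. The 7 open points, between 0.59 and 1.39, are Mis18a, Cenpa, Cenpw, Cenpt, Cenpl, Cenpq and Bub3; Plk1 is highest at 4.17.

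Of the 5 spindle checkpoint genes 4 were higher and Bub3 was not called. Ttk (also MPS1), the kinase that starts the checkpoint signal, had 7.75, 21.8 and 73.1 CPM in the lowest, median and highest tumour against 1.56, 1.88 and 2.77 CPM in epithelium (log2 fold change 3.73, SE 0.68, edgeR adjusted p = 0.00232). Bub1, a kinase that marks centromeres for cohesion protection, had 13.3, 29.6 and 96.2 CPM against 3.29, 4.03 and 3.85 CPM (log2 fold change 3.29, SE 0.62). Bub1b, which encodes BubR1 of the complex that inhibits the APC/C, had 35.9, 72.4 and 307 CPM against 11.4, 10.6 and 18.2 CPM (log2 fold change 2.87, SE 0.70, adjusted p = 0.0128). None of these 3 overlapped between the groups. Mad2l1, the Mad2 protein that binds Cdc20, had 22.3, 42.0 and 106 CPM against 16.4, 13.9 and 14.1 CPM, also without overlap (log2 fold change 1.67, SE 0.50, adjusted p = 0.0341). Bub3, the partner of Bub1 and BubR1, had 46.1, 91.2 and 146 CPM in tumours against 52.1, 47 and 49.7 CPM in epithelium, and 8 of 9 tumours lay above all epithelium libraries (log2 fold change 0.96, SE 0.33, adjusted p = 0.0584). Without tumour 1 or tumour 21 Bub3 was called (adjusted p 0.049 and 0.0211). Mad2l1 lost its call without any 1 of the epithelium libraries (edgeR adjusted p 0.1092 to 0.1316), and Bub1b without library 1 or 2 (0.0722 and 0.0715).

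The chromosomal passenger complex corrects faulty attachments, and all 4 of its genes were higher. Birc5 (survivin), which brings the complex to the centromere, had 15.8, 46.5 and 80.5 CPM in the lowest, median and highest tumour against 3.01, 3.30 and 4.73 CPM in epithelium (log2 fold change 3.62, SE 0.58, edgeR adjusted p = 0.000963). Cdca8 (borealin), its partner, had 10.7, 20.9 and 62.4 CPM against 3.12, 3.16 and 3.62 CPM (log2 fold change 2.96, SE 0.57). Every tumour exceeded every epithelium library in both genes. Aurkb, the kinase of the complex, had 4.20 CPM in tumour 4 and 8.96 to 44.4 CPM in the others, against 2.98, 3.69 and 4.83 CPM in epithelium (log2 fold change 2.30, SE 0.61, adjusted p = 0.0187). Incenp, the scaffold that activates the kinase, had 14.1 CPM in tumour 4 and 26.9 to 178 CPM in the others, against 13.7, 13.1 and 17 CPM (log2 fold change 2.14, SE 0.67, adjusted p = 0.0399). Tumour 4 was thus the 1 tumour within the epithelium range for both genes. Without any 1 of the epithelium libraries neither was called (edgeR adjusted p 0.0641 to 0.0983 in Aurkb and 0.1232 to 0.1461 in Incenp), nor was Incenp without tumour 5 or 20 (0.0514 and 0.0531).

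Plk1 had the largest fold change of the 47 genes. This kinase (chr7:122159439-122169873) drives mitotic entry, spindle assembly and the release of cohesin, and it had 8.94, 30.6 and 102 CPM in the lowest, median and highest tumour against 2.25, 1.98 and 2.40 CPM in epithelium (log2 fold change 4.17, SE 0.90, edgeR adjusted p = 0.00632). Tumours 20 and 24 had 101 and 102 CPM, and no other tumour passed 36.0 CPM. Aurka, the spindle pole kinase, had 17, 37.3 and 117 CPM against 5.09, 4.76 and 5.17 CPM (log2 fold change 3.09, SE 0.61). Sgo1, the shugoshin that guards centromeric cohesion until anaphase, had 7.30, 17.3 and 32.7 CPM against 1.80, 1.84 and 2.50 CPM (log2 fold change 3.09, SE 0.49, adjusted p = 0.000834). No tumour overlapped the epithelium in these 3 genes.

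All 5 genes of the cyclin group were higher without overlap. Cdk1 (chr10:69335146-69352938), the kinase of mitotic entry, had 14.2, 41.3 and 121 CPM in the lowest, median and highest tumour against 4.12, 5.32 and 6.46 CPM in epithelium (log2 fold change 3.54, SE 0.65, edgeR adjusted p = 0.00226). Ccnb1 (chr13:100778650-100786570), the cyclin B1 that activates it, had 11.4, 49.0 and 92.2 CPM against 3.46, 4.10 and 5.92 CPM (log2 fold change 3.32, SE 0.64, adjusted p = 0.00314). Of the 4 annotated near copies of Ccnb1 in the genome, Ccnb1-ps, Gm12856 and Gm8416 had under 1 CPM in every library, and Gm7483 was not analysed here. Ccnb2, the other mitotic B cyclin, had 11.5, 31.3 and 102 CPM against 3.84, 4.52 and 5.65 CPM, and Ccna2, the cyclin of S phase and mitotic entry, 43.2, 86.0 and 227 CPM against 8.93, 8.69 and 14.9 CPM. Their log2 fold changes were 3.05 (SE 0.61) and 3.21 (SE 0.51). Foxm1, the transcription factor that drives many of these genes, had 16.3, 27.6 and 80.6 CPM against 4.02, 5.21 and 5.58 CPM (log2 fold change 2.94, SE 0.60). Its highest tumour was tumour 1, not tumour 24.

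Cdc20 and Ube2c act at the APC/C, and both were higher without overlap. Ube2c, the E2 enzyme that starts ubiquitin chains, had 13.5, 46.2 and 120 CPM in the lowest, median and highest tumour against 2.25, 2.71 and 3.99 CPM in epithelium (log2 fold change 4.07, SE 0.73, edgeR adjusted p = 0.00198). Cdc20, the activator that the checkpoint holds back, had 16.2, 41.1 and 125 CPM against 4.54, 6.08 and 7.03 CPM (log2 fold change 3.10, SE 0.70, adjusted p = 0.00811). Cdc20 lost its call without epithelium library 1 (edgeR adjusted p = 0.054).

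The 5 genes of spindle microtubule proteins were higher, 4 of them without overlap. Tpx2, which activates Aurora A on the spindle, had 37.9, 95.3 and 289 CPM in the lowest, median and highest tumour against 8.28, 10.1 and 10.6 CPM in epithelium (log2 fold change 3.55, SE 0.61, edgeR adjusted p = 0.00152). Prc1, which bundles the microtubules of the central spindle, had 35.6, 72.7 and 215 CPM against 7.48, 9.18 and 12.2 CPM (log2 fold change 3.35, SE 0.62). Nusap1 and Hmmr, which stabilise and anchor spindle microtubules, rose by 2.74 and 2.37 on the log2 scale. Psrc1, a microtubule plus-end protein, varied most, with 1.36 CPM in tumour 1, 29.5 CPM in the median and 82.0 CPM in tumour 17, against 1.97, 1.91 and 3.48 CPM in epithelium. Its log2 fold change of 3.55 had an SE of 1.17 (edgeR adjusted p = 0.0477). Psrc1 was not called without any 1 of the epithelium libraries (0.1311 to 0.1681) or without tumour 4, 17, 20, 24 or 27 (0.0566 to 0.0649), nor with upper quartile scaling or either other filter (0.0526 to 0.0662), and Hmmr was not called without epithelium library 2 (0.0502).

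Mki67 and Top2a, which coat and untangle mitotic chromosomes, were the most abundant of the 47 in tumours per length of transcript. Mki67 had 202, 430 and 1820 CPM in the lowest, median and highest tumour against 62.1, 70.8 and 112 CPM in epithelium (log2 fold change 2.96, SE 0.68, edgeR adjusted p = 0.00903). Top2a had 174, 266 and 677 CPM against 43.7, 43.8 and 65.8 CPM (log2 fold change 2.58, SE 0.43, adjusted p = 0.00118). Neither overlapped, and Mki67 lost its call without epithelium library 1 or 2 (adjusted p 0.0596 and 0.0554). Per 1000 bases of exon, the level of Mki67 averaged 62.9 CPM in tumours and 8.1 CPM in epithelium, and that of Top2a 33.9 and 5.67 CPM. On the same scale Cdc20 averaged 27.1 and 3.15 CPM, while Cenpk, the lowest of the 47 in tumours, averaged 1.36 and 0.298 CPM. The highest of the 47 per length in epithelium after Mki67 was Bub3, with 13.7 CPM per 1000 bases in tumours and 7.08 in epithelium.

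Promoter sequences show what many of these genes share that the choice by name did not use. Late cell cycle genes often carry a CHR element, the letters TTTGAA or TTCGAA, which the MuvB core binds, close to CCAAT boxes, which NF-Y binds. RefSeq promoters on GRCm38.p6, each running from 250 bases before to 50 after a start, were found for 41 of the 47 genes and gave 46 sequences. Both strands were searched. The promoters of Cdk1 and Plk1 are shown as called genes with a CHR, Ccnb1 as a called gene without one, and Cenpa and Cenpq as genes that were not called, with and without one. Each is written 5′ to 3′ along its gene, and capitals mark either CHR form and the CCAAT box, on either strand.
Cdk1, chr10:69352863-69353162, minus strand: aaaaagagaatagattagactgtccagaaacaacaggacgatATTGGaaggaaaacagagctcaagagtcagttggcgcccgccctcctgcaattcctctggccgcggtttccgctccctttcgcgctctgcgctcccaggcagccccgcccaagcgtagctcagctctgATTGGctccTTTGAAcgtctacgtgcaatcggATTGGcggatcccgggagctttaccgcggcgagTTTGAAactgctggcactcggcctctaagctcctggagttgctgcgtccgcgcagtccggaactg
Plk1, chr7:122159185-122159484, plus strand: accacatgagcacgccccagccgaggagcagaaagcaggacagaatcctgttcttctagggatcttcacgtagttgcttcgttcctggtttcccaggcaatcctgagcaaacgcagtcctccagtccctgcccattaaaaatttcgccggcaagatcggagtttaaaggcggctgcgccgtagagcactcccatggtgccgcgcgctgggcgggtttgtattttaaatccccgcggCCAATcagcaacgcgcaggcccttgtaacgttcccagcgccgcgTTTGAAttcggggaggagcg
Ccnb1, chr13:100786437-100786736, minus strand: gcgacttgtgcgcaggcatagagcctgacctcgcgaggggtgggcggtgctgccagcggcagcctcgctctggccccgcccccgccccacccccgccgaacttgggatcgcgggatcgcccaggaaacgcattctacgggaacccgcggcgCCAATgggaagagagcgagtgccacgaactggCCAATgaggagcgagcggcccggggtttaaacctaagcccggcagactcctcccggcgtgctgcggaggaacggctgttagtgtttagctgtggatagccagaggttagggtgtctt
Cenpa, chr5:30666636-30666935, plus strand: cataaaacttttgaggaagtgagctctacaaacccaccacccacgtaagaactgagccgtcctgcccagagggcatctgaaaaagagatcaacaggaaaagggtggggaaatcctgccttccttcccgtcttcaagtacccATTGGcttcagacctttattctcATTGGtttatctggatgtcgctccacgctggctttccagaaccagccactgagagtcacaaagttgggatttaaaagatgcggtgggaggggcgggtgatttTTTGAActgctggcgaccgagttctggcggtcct
Cenpq, chr17:40934525-40934824, minus strand: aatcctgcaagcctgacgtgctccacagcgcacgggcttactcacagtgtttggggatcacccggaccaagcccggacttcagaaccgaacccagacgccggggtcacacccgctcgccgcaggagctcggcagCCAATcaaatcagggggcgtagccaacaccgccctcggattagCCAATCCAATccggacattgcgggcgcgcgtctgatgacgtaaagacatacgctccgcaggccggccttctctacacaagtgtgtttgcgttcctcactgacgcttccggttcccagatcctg

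In the Cdk1 promoter TTTGAA began 71 and 15 bases before the start, among 3 CCAAT boxes. In Plk1 it began 31 bases and in Cenpa 17 bases after the start, with 1 and 2 CCAAT boxes upstream of it. Either CHR form was in 31 of 46 promoters of these genes (67.4%) and in 19.2% of all 32851 mouse promoters in the table. Within 60 bases of the start the shares were 56.5% and 5.9%. CCAAT was in 80.4% and 37.4%, at least 2 copies in 50% and 11.7%, and a CHR together with CCAAT in 60.9% and 7.52%. By gene, 23 of 34 called genes and 5 of 7 genes that were not called had a CHR form in a promoter. Those 5 were Bub3, Cenpa, Cenpl, Cenpw and Mis18a. Within 60 bases of the start a CHR form was found in 21 of the 34 called genes and 3 of the 7 others. A match of letters is a description and shows no binding.

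The same tumours were at both ends in every group of genes, while those between changed places. The mean log2 CPM of the 47 genes was 6.07 in tumour 24, 5.59 in tumour 20, 3.71 in tumour 21 and 4.53 to 4.99 in the other 6 tumours, against 2.33, 2.37 and 2.69 in the epithelium libraries. As a median over genes, tumour 24 had 15.3 times the epithelium mean, tumour 20 10.3 times, tumour 21 2.57 times and the others 4.59 to 5.73 times. Tumour 24 was the highest tumour in 32 of the 47 genes and first or second in 43, and tumour 21 was the lowest in 36. In all 11 role groups the highest mean was in tumour 24 and the lowest in tumour 21. Tumour 20 ranked 2 or 3 in each, and tumour 1 ranked 3 in the cyclin and passenger groups and 8 in the NDC80 and spindle microtubule groups. Tumour 20 was the highest in Cenpa, Cenph, Cenpu, Bub3, Ccnb1 and Cdk1. Tumour 21, the lowest, had the highest summed CPM of 8 fibroblast markers, 32100 against a tumour median of 2810 and 3920 to 5960 in epithelium. None of the 8 was called between the groups. Tumour 21 also had the lowest Krt8 and Krt18, 218 and 200 CPM. Whether its cell make-up goes with its low values was not tested. Across the 9 tumours 31 of the 47 genes had a Pearson correlation above 0.8 with the mean of the other 46, lowest in Cenpt at 0.13, Psrc1 at 0.37 and Birc5 at 0.41; all values of a tumour share 1 library and its depth. The SD of log2 CPM over tumours had a median of 0.845 for these genes and 0.757 for all genes tested, and over epithelium libraries 0.256 and 0.177. Among the epithelium libraries, library 3 was the highest in 38 of the 47 genes, and in 34.3% of all genes tested. Summed B cell markers there were 869, 665 and 953 CPM in libraries 1, 2 and 3. The sum of 6 germinal centre B cell markers, of a dividing B cell, was 82.1, 80.3 and 81.5 CPM. In tumours this sum was 55.7 to 139 CPM although B cell markers were 1.89 to 63.8 CPM, so it does not single out B cells here. The part of B cells was not tested.

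**Figure D3:**
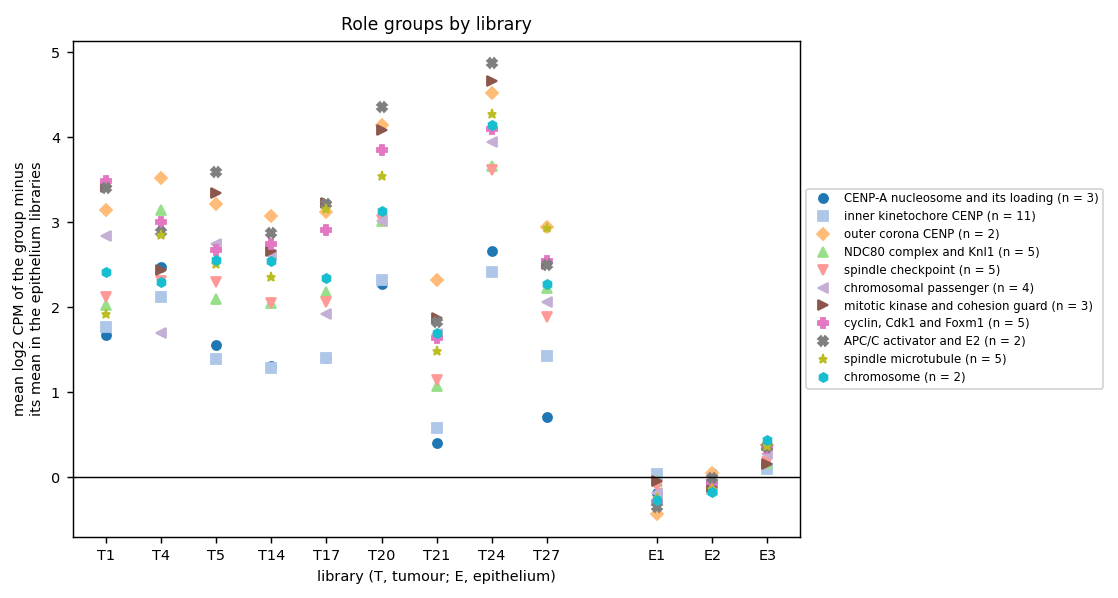
Mean log2 CPM of each of 11 role groups (symbols, number of genes in the legend) in every library, less the group's mean in the 3 epithelium libraries; T marks tumours and E epithelium. Every group is highest in tumour 24 and lowest among tumours in tumour 21, and the 2 lowest symbols in most tumours are CENP-A loading and the inner kinetochore.

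Tumour 4 ranked from 2 to 8 over the role groups. It was the highest of the 9 tumours in Mis18a, Cenpk, Cenpp, Cenpq, Cenpw and Mad2l1, and the lowest in Cenpt, Bub1b, Aurkb, Incenp and Plk1. For instance Cenpq had 44.8 CPM in tumour 4 and at most 18.1 CPM in the other tumours, while Plk1 had 8.94 CPM in tumour 4 and 9.49 to 102 CPM in the others. Its deviation, the log2 CPM minus the median of the other 8 tumours, ran against the G+C content of the longest annotated transcript, with Pearson r = -0.57 over the 47 genes. In the 8 other tumours the same r lay between -0.22 and 0.37, and in tumour 4 it was -0.31 over 11732 protein-coding genes. The 12 genes of lowest G+C content (35.8 to 41.8%) had a median deviation of 0.85 and the 12 of highest (50.4 to 56%) one of -0.96. Relative to the MCM helicase genes of DNA replication, the mean log2 CPM of the 47 genes was -0.454 in tumour 4, -1.32 to -2.04 in the other tumours and -2.54 to -2.83 in epithelium. The mean of the MCM genes themselves was 5.44 in tumour 4, the lowest of the tumours, and 5.56 to 7.45 in the others. That of the 47 genes was 4.99 in tumour 4. Tumour 4 was also the library with the largest shares of alignments not unique and of Rn7sk, and whether these go with the deviation was not tested.

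**Figure D4:**
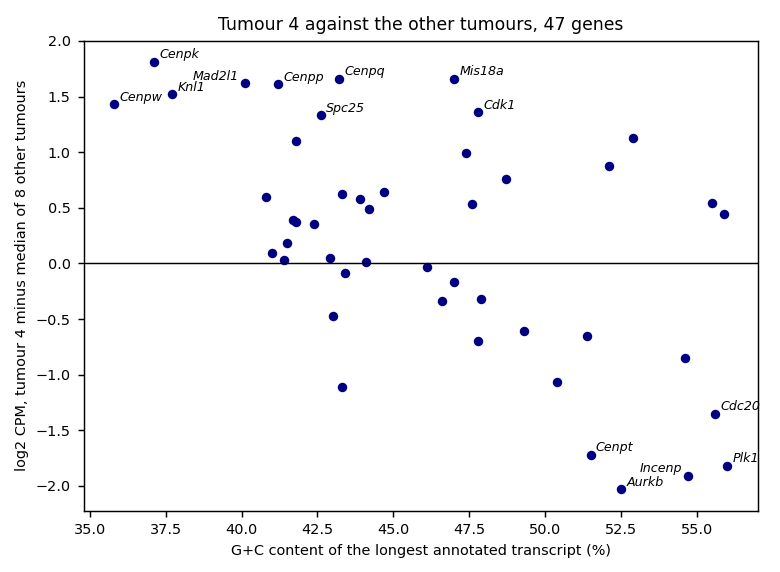
Each point is 1 of the 47 genes; the horizontal axis is the G+C content of its longest annotated transcript in percent and the vertical axis its log2 CPM in tumour 4 minus the median of the 8 other tumours. Points fall from upper left (Cenpk, Cenpw, Knl1) to lower right (Plk1, Incenp, Aurkb), with r = -0.57.

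Genes whose proteins work as partners were compared tumour by tumour in 6 pairs. Log2 CPM of Ccnb1 and Cdk1 had Pearson r = 0.87 over 9 tumours (exact permutation p = 0.0021, 0.0115 adjusted over 6 pairs) and Spearman rho = 0.87 (exact permutation, adjusted p = 0.0182). Leaving out the 2 tumours farthest from the median, in this pair 14 and 21, gave r = 0.79 (exact permutation p = 0.0329). Spc24 and Spc25 had r = 0.82 (exact permutation p = 0.0076, adjusted 0.0115) and rho = 0.85 (adjusted p = 0.0182). In this pair and the next 2 the tumours left out were 21 and 24, and without them r here was 0.57 (exact permutation p = 0.184). Ndc80 and Nuf2 had r = 0.83 (exact permutation p = 0.0072, adjusted 0.0115) but rho = 0.57 (adjusted p = 0.181), and r = 0.38 without the 2. Bub1 and Bub1b had r = 0.84 (exact permutation p = 0.0056, adjusted 0.0115), rho = 0.57 (adjusted p = 0.181) and r = 0.51 without the 2. Leaving out the farthest tumours narrows the range, which by itself lowers r. The tumours left out were not the same for Ccnb1 with Cdk1, so its r cannot be ranked against the others. Ndc80 with Nuf2 and Bub1 with Bub1b passed by r but not by rho. Without tumour 4 alone their r was 0.83 and 0.92, and the part of single tumours was not tested. Foxm1 and its known target Ccnb1 had r = 0.45 (exact permutation p = 0.221, adjusted 0.265) and rho = 0.40, and Aurkb with Birc5, both of the passenger complex, r = 0.06 (exact permutation p = 0.889, adjusted 0.889) and rho = 0.28. In tumour 4 Birc5 had 73.2 CPM beside 4.20 CPM of Aurkb, and without that tumour their r was 0.58.

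**Figure D5:**
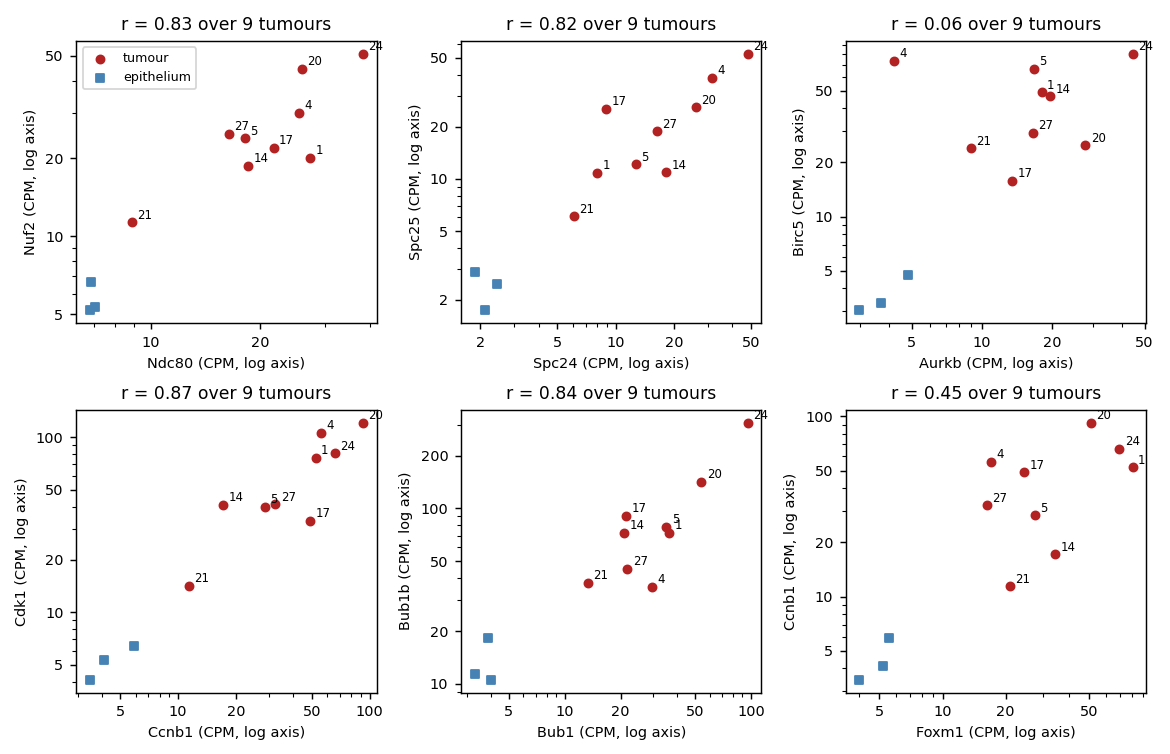
Scatter plots of the 6 partner pairs in CPM on log axes; red circles are tumours, with their label numbers, and blue squares epithelium libraries, which did not enter r. Among the red circles tumour 21 is the lowest in both genes for Ndc80 with Nuf2, Spc24 with Spc25 and Ccnb1 with Cdk1. Tumour 4 stands alone at the upper left of the panel of Aurkb and Birc5.

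Further genes of the same machinery, in 10 lists chosen by function, were set against the shares over all genes, of which 8.89% were higher and 11.4% lower. The example of each list is its called gene with the smallest adjusted p, not the largest change; where that gene is not reported, only counts are given. Of 9 other centromere and CENP genes 2 were higher (median log2 fold change 0.60). Of 8 other outer kinetochore genes 5 were higher (median 1.55), for example Ska3, of the complex that strengthens grip on microtubules, with 9.25 ± 5.60 CPM on average in tumours and 0.995 ± 0.233 CPM in epithelium. Of 7 other checkpoint genes 4 were higher (median 1.57), for example Kntc1, the Rod protein, with 37.8 ± 17.3 and 5.40 ± 1.25 CPM (SD, n = 9 and 3 throughout). Of 17 subunits and regulators of the APC/C 1 was higher (median 0.59), namely the RING subunit Anapc11 with 38.1 ± 17.1 and 15.5 ± 0.9 CPM. With limma-voom 8 of the 17 were higher, where 23.3% of all genes were. Of 12 genes of the mitotic entry switch 6 were higher (median 1.81), for example Mastl, the Greatwall kinase (log2 fold change 2.96, SE 0.47). Of 14 cohesin and separase genes 5 were higher (median 0.28), for example the shugoshin Sgo2a (3.55, SE 0.53), and of 8 condensin genes 6 were (median 1.36), for example Ncapg (2.73, SE 0.50). Cytokinesis gave 5 of 6 (median 2.56), for example Ect2, which activates RhoA at the cleavage furrow (3.28, SE 0.57), and the MCM helicase 4 of 6 (median 1.5), for example Mcm6 (1.89, SE 0.45). The DREAM and B-Myb MuvB list, of the complexes that repress or activate these promoters, held 2 of 11 genes higher and 2 lower (median 0.26). Tfdp1, the dimer partner of E2F, rose by 1.87 (SE 0.47), while the MuvB subunit Lin52 averaged 6.47 ± 1.24 CPM in tumours and 13.1 ± 0.7 CPM in epithelium and fell by 1.02 on the log2 scale (edgeR adjusted p = 0.0144). Without epithelium library 1, 2 or 3, where 2.26%, 2.42% and 2.45% of all genes were higher, no gene was called in the DREAM, MCM, APC/C and other CENP lists, 1 in the other outer kinetochore list each time, and 1, 1 and 2 in the other checkpoint list. The cytokinesis list then held 2, 1 and 2 calls, the condensin and cohesin lists 3 each time, and the mitotic entry list 3, 3 and 4. Without single tumours, the APC/C list held no call without tumour 5 or 14 and 2 without tumour 1 or 21, the other CENP list 1 call without tumour 1, 5, 20, 24 or 27, and the DREAM list 1 lower gene without tumour 14 or 24.

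The genes most like the 47 across tumours were sought among 12483 others with 5 CPM or more on average over tumours, by Pearson's r of log2 CPM with the mean of the 47 over 9 tumours. They were Ncapg (0.981) and Smc2 (0.974), both of condensin, Hspd1 (0.967), a mitochondrial chaperone, and Zfp428, Cdca3 and Dut (0.966 each), of which Dut encodes the enzyme that clears dUTP. Ercc6l (0.964), a helicase of anaphase DNA bridges, and Ube2t (0.960), an E2 enzyme of the Fanconi repair pathway, completed the 8. Each was higher in all 9 tumours than in any epithelium library, which held for 10.2% of all genes tested. Epithelium values took no part in the choice, but a minimum level in tumours did, as did likeness to genes mostly higher in tumours. The lack of overlap is therefore no independent support.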

How the data were processed

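Per the labels' protocols, total RNA was made into stranded TruSeq libraries. The deposited values are raw counts per gene, 1 file per library, with 5 summary counts each; the authors applied no normalization. Tools per the submitters' processing notes were HTSeq 0.11.0, TopHat2 2.1.1 and FastQC 0.11.8, on GRCm38. Those notes give no annotation release, strand setting or counting unit (reads or pairs). Groups were read from titles, and summary counts were left out of library totals. Reads carry no molecular identifiers, so limits cover counting error only.

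Counts were fitted in R 4.3.3 with edgeR 4.0.16 (filterByExpr, trimmed mean of M values, robust quasi-likelihood F test, group as the only term) over all genes, after the scripts were tested on simulated data. SE was computed as |log2 fold change| / √F. CPM carry no prior count; means of log2 CPM and correlations used a prior count of 2. DESeq2 1.42.0 and limma 3.58.1 gave alternatives, beside other scalings, filters, a covariate and leaving out each library. Positions, exonic lengths and G+C content came from GENCODE M21, matched by symbol for 54106 genes; promoters came from RefSeq, GRCm38.p6. Near copies were sought with BLAST 2.17.0.

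All 47 genes are named, with the called gene of smallest adjusted p in each direction of each related list, the 8 most alike genes, and tissue markers with Trp53; 1 gene that this rule names is not reported here. Members and lists were chosen with earlier results of these data known, so no list is independent evidence of its direction. Cenpu's neighbour Primpol, and the neighbours in the closing part, were named after their values were seen.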

Additional observations from a re-analysis of the deposited data

Results flagged for a closer look

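In 12 of the 47 genes 1 tumour stood far from the other 8 in CPM, by Dixon's ratio of the gap to the range at the 95% level. Chance marks about 1 in 20 groups of normally distributed values, and CPM need not be so distributed. Genes that move together are marked together. Tumour 24 was the high one in 9 of them: Cenpi at 53.8 CPM, Cenpn at 23.7 CPM, Bub1 at 96.2 CPM, Bub1b at 307 CPM, Aurka at 117 CPM, Ccna2 at 227 CPM, Ccnb2 at 102 CPM, Hmmr at 86.5 CPM and Top2a at 677 CPM. The next highest tumours in these genes were at 27.6, 12.8, 54.3, 142, 55.4, 120, 53.0, 38.9 and 329 CPM. Tumour 4 was the high one in Cenpq at 44.8 CPM and in Cenpw at 28.9 CPM, with the next tumours at 18.1 and 18.5 CPM. Tumour 20 was the high one in Cenpu at 48.5 CPM, with the next at 14.8 CPM. None of the 11 role group means was so marked.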

How the results depend on the processing

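Members called higher numbered 40, and 0 once alignments outside genes entered as a covariate (their share), where the smallest adjusted p was 0.0616 and 45 of 47 log2 fold changes were positive; Mis18a and Cenpq turned to -0.52 and -1.26 there. The cause was not tested. The other settings gave 37 to 45 calls, among them 37 with upper quartile scaling, 43 with DESeq2 and 45 with limma-voom, and no gene was called lower in any. Leaving out a library gave 27 to 43 calls and medians of 2.57 to 3.04; 25 genes were called in every setting but the covariate. Without single tumours r ranged from 0.69 to 0.92 for Ndc80 and Nuf2, 0.73 to 0.94 for Spc24 and Spc25, 0.75 to 0.94 for Ccnb1 and Cdk1, 0.65 to 0.92 for Bub1 and Bub1b, and -0.3 to 0.58 for Aurkb and Birc5. Without tumour 21 none of the first 4 pairs passed the threshold, nor, without tumour 24, any of them but Ccnb1 with Cdk1. Upper quartile scaling moved 3 tumours in the order by mean log2 CPM. For lists of related genes, the APC/C held 0 calls and the other CENP genes 1 with upper quartile scaling, and 8 and 5 with limma-voom. No paired analysis was possible because the groups share only replicate number 1. The 3 epithelium libraries set the limit of precision for every fold change.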

Other observations

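Genes beside Cenpu and Psrc1 on the chromosome, looked at after the values of both were seen, also varied over the 9 tumours. Beside Cenpu on chromosome 8, Slc25a4, a mitochondrial ADP/ATP carrier, had 522 CPM in tumour 20 and 58.9 to 276 CPM in the others, and Cfap97 had 63.8 CPM in tumour 20 and 18.5 to 36.0 CPM in the others. Beside Psrc1 on chromosome 3, Sort1, which encodes the sorting receptor sortilin, had 319 CPM in tumour 17 and 6.32 CPM in tumour 1, the same tumours that were highest and lowest in Psrc1.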
